A study of Mus musculus with 15 samples.

Results

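Ngfr encodes the nerve growth factor receptor p75, also called CD271, and it is 1 gene of the 38315 in a table of normalized counts from 15 mouse bone marrow libraries. It was chosen from measured values, as the gene with that symbol, because it had been seen at high levels in acute myeloid leukaemia (AML) and at low levels in both normal groups. Its levels by group are therefore a description here, with no test. The study sequenced total RNA from the leukaemic marrow of NUP98-NSD1/FLT3-ITD transgenic mice (AML, 7 samples) and from normal marrow of wild-type mice, either whole (4 samples) or lineage-negative (4 samples). The AML mice carry a fusion of the nuclear pore gene NUP98 with the histone methyltransferase gene NSD1 together with an internal tandem duplication of the receptor kinase FLT3, and the wild-type mice carry neither. Lineage-negative marrow is marrow depleted of cells with markers of mature blood lineages, which leaves it rich in progenitors. The AML samples are labelled as marrow tissue, with no depletion named. The ages of the mice, the promoters of the transgenes and whether any sample pools animals are not given in the sources used here, and the p-values below measure the spread between these samples.

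The p75 receptor binds every neurotrophin, a small family of secreted nerve growth factors, and also their uncleaved precursors. It belongs to the tumour necrosis factor (TNF) receptor superfamily, has a death domain inside the cell and no kinase of its own, and works with partners: Trk kinases for the mature factors, sortilin-type receptors for the precursors, and the Nogo receptor with Lingo1 for inhibitors of nerve growth. It is cut by metalloproteases and then by gamma-secretase, which frees its inner part. In marrow the protein is known as a marker of mesenchymal stromal cells, and outside marrow it is found on Schwann cells, sympathetic neurons and follicular dendritic cells.

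The gene (ENSMUSG00000000120) lies on the minus strand of chromosome 11, at 95459644 to 95478561 in the deposited table. The submitters' processing notes name the build mm10, but the table's starts match the GRCm38 annotation (the same assembly as mm10) for 861 of 38066 gene identifiers only, so the build of the table is not settled. In the GRCm38 annotation Ngfr spans 95568818 to 95587735, with the same length of 18918 bases, 6 exons and 3446 exonic bases. No other gene of the table overlaps it, so its reads are not shared with an antisense or nested gene. The stretch below is the promoter around the RefSeq start of the gene, 250 bases before to 50 bases after it, at chr11:95587649-95587948 of GRCm38.p6, minus strand. It is shown because it carries 4 copies of the GC box GGGCGG on either strand, which are in capitals.

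Ngfr promoter: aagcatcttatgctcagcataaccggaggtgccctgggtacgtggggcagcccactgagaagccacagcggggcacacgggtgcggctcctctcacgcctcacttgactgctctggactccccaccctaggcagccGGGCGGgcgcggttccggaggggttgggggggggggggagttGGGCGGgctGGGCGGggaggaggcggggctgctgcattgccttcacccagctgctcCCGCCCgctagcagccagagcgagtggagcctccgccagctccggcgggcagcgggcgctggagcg

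These 300 bases hold 23 CpG dinucleotides, and 78.5% of the 32851 RefSeq promoters of the same length hold fewer, with a median of 7. Of its bases 71.7% are G or C, against a median of 52.7%. The letters GGGCGG, searched on both strands, occur in 35.7% of all promoters, and 5.49% hold them at least 4 times. The E-box CAGCTG occurs once here and in 16.3% of promoters, and the TATA box TATAAA and the CCAAT box do not occur in this window. These matches describe the letters of the reference sequence, and no transcript start, binding or methylation was measured.

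Depth, estimated from the value of 1 read in each library, was 20300000 to 35100000 reads in AML, 11400000 to 17200000 reads in whole marrow and 20300000 to 28100000 reads in lineage-negative marrow, each rounded. The whole marrow libraries stood apart in genes that marrow should not express. The mean of 1611 olfactory and vomeronasal receptor genes was 6.69 to 12.6 normalized counts there, against 0.35 to 0.47 in lineage-negative marrow and 0.44 to 0.69 in AML replicates 1, 2, 3, 4 and 7. AML replicate 5 had 1.23 and AML replicate 6 had 3.55. Genes listed at 0 made up 7.12% to 15.7% of the table in whole marrow, 23.6% in AML replicate 6, 29.1% in AML replicate 5 and 35.7% to 41.4% in all the others. The median of all tested genes was 0.67 higher on the log2 scale in AML than in whole marrow and 0.02 higher than in lineage-negative marrow, so differences from whole marrow are also given under a second scaling, the trimmed mean of M values (TMM).

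Ngfr was read at 132, 187, 355, 158, 160.5, 27.1 and 204 normalized counts in AML replicates 1 to 7. It was read at 10.8, 20.1, 17.7 and 13.6 in whole marrow replicates 1 to 4 and at 12.7, 4.41, 2.64 and 6.53 in lineage-negative replicates 1 to 4. Every AML library was above every normal library, AML replicate 3 was the highest and AML replicate 6 stood far below the other AML libraries. The AML mean was 175 ± 98.1 (SD, n = 7). The mean of whole marrow was 15.6 ± 4.16 and that of lineage-negative marrow 6.57 ± 4.39 (SD, n = 4 each).

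**Figure D1:**
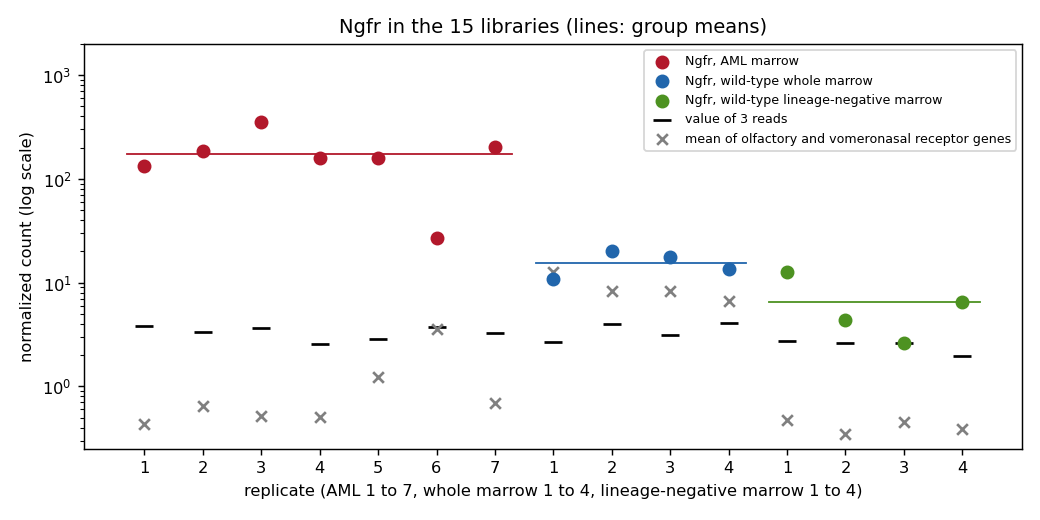
Ngfr in each of the 15 libraries (filled points, normalized counts on a log axis), with group means as lines, the value of 3 reads as black dashes and the mean of the olfactory and vomeronasal receptor genes as grey crosses. AML replicate 6 at 27.1 sits nearest to the normal libraries, and the crosses are higher in whole marrow, at 6.69 to 12.6, than in lineage-negative marrow.

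The mean in AML was 11.2 times that of whole marrow and 26.6 times that of lineage-negative marrow. Without AML replicate 6 these ratios were 12.8 and 30.4. Under TMM scaling they were 7.55 and 26.4. The gap between the extremes was small in whole marrow: AML replicate 6 was 1.35 times the highest whole marrow library as deposited, 1.07 times under TMM and 1.03 times at equal library totals. The next lowest AML library, replicate 1, was 6.58 times the highest whole marrow library. In bulk tissue, more cells that express the gene and more RNA per cell cannot be told apart.

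The normal levels rested on few reads. Whole marrow libraries held 10 to 17 estimated reads of Ngfr and lineage-negative libraries 3 to 14, against 22 in AML replicate 6 and 104 to 290.0 in the other AML libraries. Lineage-negative replicate 3 was at the floor of 3 reads used here as the limit that a count of 0 allows. In whole marrow 42.3%, 10.1%, 12.3% and 14.7% of the olfactory and vomeronasal genes, which marrow should not express, were at or above Ngfr in replicates 1 to 4. Per kilobase of exon Ngfr stood at 3.13, 5.83, 5.15 and 3.96 in these replicates, and the mean of those genes at 3.26, 2.11, 2.07 and 1.73. The shares at or above Ngfr per kilobase were 49.0%, 2.92%, 4.47% and 8.32%. By normalized counts that share in AML was at most 0.062% except for 1.06% in replicate 6, and in lineage-negative marrow it was 0.621% to 2.36%. Whole marrow was 2.37 times lineage-negative marrow as deposited, with overlapping values, and 3.49 times under TMM, where they did not overlap. The part of the whole marrow background in that ratio was not tested.

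Among all genes of a library Ngfr was of middling rank. Its percentile was 63.5 to 78.9 in AML, 49.1 to 60.4 in whole marrow and 48.2 to 59.4 in the lineage-negative libraries. Genes listed at 0 are counted in these percentiles.

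The ligands of the receptor reported here were close to absent in AML. Bdnf, the brain-derived factor, was listed at 0 normalized counts in 6 of 7 AML libraries, at 6.17 in AML replicate 6, and at 4.09 to 16.2 in whole marrow. Ntf3 and Ntf5, further neurotrophins, did not exceed 1.69 in AML. None of the 4 ligands passed the filter of 10 normalized counts in at least 4 libraries, so none was tested.

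Of 11 receptors and co-receptors, 7 passed the filter. Against whole marrow, 3 of the 7 were called lower and 0 higher, where a call is a limma adjusted p under 0.05 and a log2 difference of at least 1 in size. Among all 18941 genes tested 11.3% were called lower and 27.3% higher. Of the 3 genes, Ntrk2 and Ntrk3 passed the filter only through the whole marrow libraries, so the filter fixed their direction and the count supports nothing. The same held for 1281 of the 2132 genes called lower among all genes tested. Under TMM scaling 8 passed the filter, 5 were called lower, 3 of them through whole marrow alone, and 0 were called higher, against 16.8% and 5.86% of all genes. Against lineage-negative marrow, 4 of the 7 were called higher and 1 lower, where 17.7% and 12.5% of all genes were. The median log2 difference of the 7 was -0.53 from whole marrow, against 0.67 over all genes tested, and 1.20 from lineage-negative marrow, against 0.02. Both comparisons use the same 7 AML libraries.

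Of the Trk kinases, which signal for mature neurotrophins, Ntrk2 and Ntrk3 were low in AML. Ntrk2, the receptor of the brain-derived factor, was listed at 0 in 5 AML libraries, at 3.78 and 19.7 in AML replicates 5 and 6, and at 45.6 to 92.4 in whole marrow. All 4 lineage-negative libraries were listed at 0. Ntrk3, the receptor of neurotrophin 3, had 1.69 to 24.5 in AML with a median of 5.66, 64.3 to 125 in whole marrow and 0 to 3.63 in lineage-negative marrow. Per kilobase of exon the whole marrow means of Ntrk2 and Ntrk3 were 3.23 and 2.80 normalized counts, within the olfactory and vomeronasal means per kilobase of the whole marrow libraries, which were 1.73 to 3.26. Since both genes passed the filter only through whole marrow, their differences from it are not given as calls. Ntrk3 was higher in AML than in lineage-negative marrow (log2 difference 2.26 ± 0.63, SE, limma adjusted p = 0.00585). That call rests on few reads, as 3 of 7 AML and 3 of 4 lineage-negative libraries were at or under the floor of 3 reads.

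The sortilin-type receptors, which bind the precursors of neurotrophins together with p75, included the most abundant genes of the group. Sortilin itself, Sort1, had 4244 to 9741 normalized counts in AML with a median of 5995, 2525 to 5484 in whole marrow and 2433 to 3227 in lineage-negative marrow. The AML libraries lay above all lineage-negative libraries and overlapped whole marrow. The log2 difference was 1.20 ± 0.23 from lineage-negative marrow (SE, limma adjusted p = 0.000246) and 0.60 ± 0.23 from whole marrow, where it was not called and was 0.00 under TMM. Sorl1, a sorting receptor of the same family, averaged 16892.5 ± 4636 over the 7 AML libraries, against 2572 ± 914 over the 4 lineage-negative ones (SD), a log2 difference of 2.73 ± 0.25 (SE, limma adjusted p = 4.35e-08). Against whole marrow its difference was 0.57 ± 0.25 (limma adjusted p = 0.0587) and it was not called. Sorcs2 had 6.61 to 55.1 in AML, 40.4 to 76.2 in whole marrow and 3.92 to 14.5 in lineage-negative marrow. It was called lower than whole marrow (log2 difference -1.33 ± 0.47, SE) and higher than lineage-negative marrow (1.38 ± 0.47, SE). The first call was lost without whole marrow replicate 3 (-1.18) and the second without lineage-negative replicate 4 (1.11). The first was also lost with the replicate number as a block (-0.79) and without AML replicates 5 and 6 (-0.99). Sorcs1 was at most 2.45 in 6 AML libraries and at 461.5 in AML replicate 6, the library with the least Ngfr, and did not pass the filter. Sorcs3 did not pass either, at 0 to 7.40 in AML.

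The Nogo receptor partners were low in AML. Rtn4r, the Nogo receptor, had 4.31 to 22.7 normalized counts in AML, 12.1 to 23.0 in whole marrow and 99.9 to 143 in lineage-negative marrow. It was lower than in lineage-negative marrow by a log2 difference of -3.49 ± 0.40 (SE, limma adjusted p = 6.48e-07). Against whole marrow the difference of -0.53 was not called as deposited, and under TMM it was -1.10 and called. Lingo1, its co-receptor, was at or below 1.27 in AML and did not pass the filter. Nradd, a death-domain homologue of p75, averaged 49.0 ± 16.2 over the 7 AML libraries (SD). Its whole marrow mean was 31.5 ± 10.8 and its lineage-negative mean 47.5 ± 8.55 (SD, n = 4 each), with no call in either comparison.

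**Figure D2:**
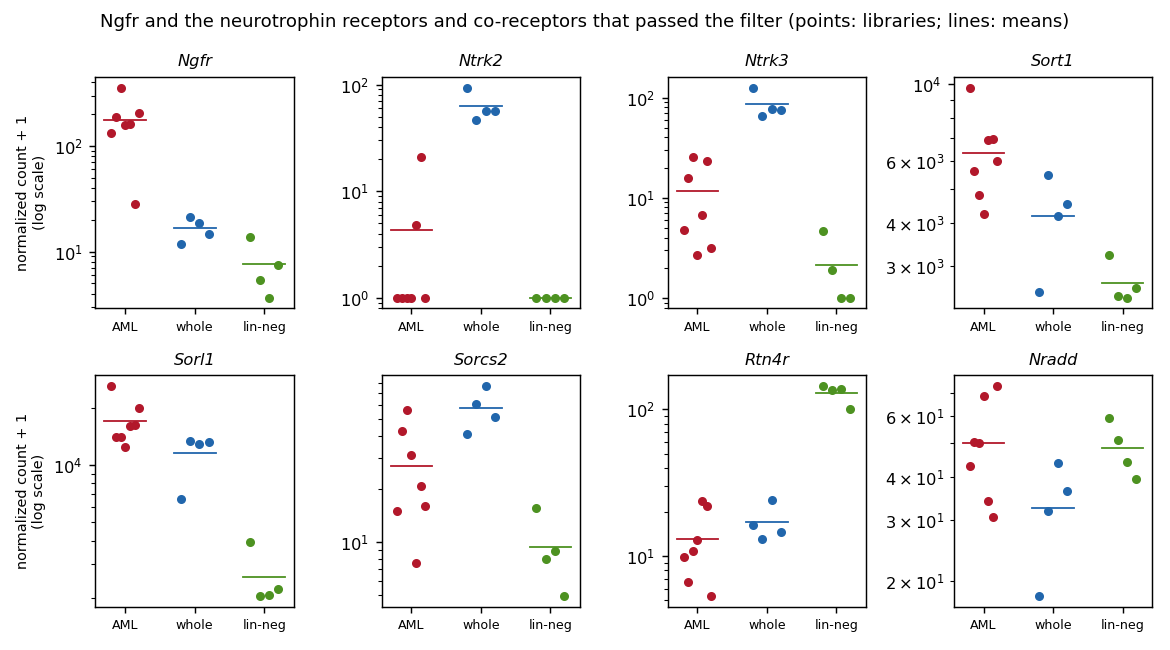
Normalized count plus 1 (log axis) of Ngfr and the 7 receptors and co-receptors that passed the filter, by group (AML, whole marrow, lineage-negative marrow), with each library as a point and means as lines. Ngfr is higher in AML than in both normal groups, Sort1 and Sorl1 are above lineage-negative marrow alone, Ntrk2 and Ntrk3 are highest in whole marrow, and Rtn4r is highest in lineage-negative marrow.

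Of 28 genes of p75 cleavage and signalling, 27 passed the filter, and their calls against whole marrow followed the scaling. As deposited 14 were called higher and 0 lower, and under TMM 1 was called higher and 0 lower. The background shares are the 27.3% and 5.86% given above. Without whole marrow replicate 1 the count fell to 5. The median log2 difference of the 27 genes from whole marrow was 1.02, and 0.41 under TMM, beside 0.67 and 0.06 over all genes. The gene called under both scalings was Aph1c, a subunit of gamma-secretase, at 379 to 634 normalized counts in AML, 129.7 to 249.6 in whole marrow and 82.2 to 105 in the lineage-negative libraries. Its log2 difference was 1.63 ± 0.20 from whole marrow (SE, limma adjusted p = 3.53e-06), 1.03 under TMM, and 2.54 ± 0.20 from lineage-negative marrow (SE, limma adjusted p = 5.17e-09). The other gamma-secretase genes Ncstn and Aph1a, the NF-kB subunit Nfkb1 and the GTPase regulator Arhgdia, which binds p75, had log2 differences of 1.43 to 1.53 from whole marrow as deposited. All 4 calls were lost under TMM, at 0.82 to 0.93.

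Against lineage-negative marrow 4 of the 27 were higher and 4 lower, with 17.7% and 12.5% of all genes called, and TMM gave the same counts. The higher genes were Aph1c, its paralog Aph1b (log2 difference 3.89 ± 0.30, SE), the NF-kB inhibitor Nfkbia (1.35 ± 0.29, SE) and the kinase Ripk2, which binds the death domain of p75 (1.23 ± 0.24, SE). Aph1b and Aph1c are close copies, so reads could have been split between them and each value alone is uncertain. Among the lower genes were Bex3 (-1.68 ± 0.25, SE), which encodes an adaptor protein that binds p75, and the phosphatase gene Ptpn13 (-1.50 ± 0.55, SE). Bex1, a relative of Bex3, was 1 of the 4 but passed the filter only through the lineage-negative libraries, at 14.6 to 28.4 normalized counts there, 0 to 11.5 in AML and 0 to 6.82 in whole marrow. The call of Ptpn13 was lost without any one of AML replicates 1, 4, 5 or 7 or lineage-negative replicates 2 or 4, at -1.58 to -1.19. It was also lost with AML and lineage-negative marrow fitted alone, and with every gene that is not 0 throughout tested. The median difference of the 27 genes was 0.12, beside 0.02 over all genes.

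In its own superfamily Ngfr was one of many receptors at a higher level in AML. Of 27 other TNF receptor genes 25 passed the filter. Against lineage-negative marrow 15 were higher and 2 lower, beside 17.7% and 12.5% of all genes, and TMM gave the same counts. Against whole marrow 13 were higher and 2 lower as deposited, and 5 higher and 2 lower under TMM, beside 27.3% and 11.3%, and 5.86% and 16.8%, of all genes. Their median log2 difference was 1.40 from lineage-negative marrow and 1.07 from whole marrow, or 0.47 under TMM. The log2 differences of Ngfr were 4.43 and 3.16, and 2.58 from whole marrow under TMM.

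The 5 receptors higher than whole marrow under both scalings were also higher than lineage-negative marrow. CD30 (Tnfrsf8), an activation receptor of lymphocytes, had 53.4 to 452 normalized counts in AML with a median of 96.3, against 14.4 to 28.1 in whole marrow and 10.6 to 24.5 in lineage-negative marrow. Its difference from whole marrow was 2.68 ± 0.46 (SE, limma adjusted p = 8.32e-05). OX40 (Tnfrsf4), a costimulator of T cells, had a difference from whole marrow of 2.39 ± 0.56 (SE, limma adjusted p = 0.00118), which was not called with voom (1.73). Of both genes AML replicate 6, the lowest in Ngfr, held the most. The type 2 TNF receptor Tnfrsf1b was the most abundant member of the superfamily per exonic length in AML. Its AML mean was 5723 ± 1213 normalized counts, not divided by length (SD, n = 7). It differed from whole marrow by 1.92 ± 0.28 (SE, limma adjusted p = 1.69e-05). Cd40, a receptor of antigen-presenting cells, differed by 1.88 ± 0.37 from whole marrow and by 5.06 ± 0.37 from lineage-negative marrow (SE, limma adjusted p = 1.53e-09 for the second). RANK (Tnfrsf11a), the receptor of the osteoclast factor RANKL, differed by 1.87 ± 0.26 and 3.84 ± 0.26 (SE).

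Other members lost a call under TMM, had a call against lineage-negative marrow only, or differed in direction between the normal groups. The death receptor Fas had 155 to 480 normalized counts in AML, far above the 3.53 to 23.6 of lineage-negative marrow (difference 4.45 ± 0.42, SE, limma adjusted p = 4.43e-08) and overlapped whole marrow, where the difference of 0.58 was not called. The T cell costimulator 4-1BB (Tnfrsf9) differed from lineage-negative marrow by 3.97 ± 0.71 (SE, limma adjusted p = 0.000132). In lineage-negative marrow it was at or under the floor of 3 reads in 2 of 4 libraries. It was also called higher than whole marrow (1.85 ± 0.71, SE, limma adjusted p = 0.0292), but not under TMM (1.27) or without any one of AML replicates 2, 3 or 6 or whole marrow replicates 1 or 2, at 1.55 to 1.79. That call was also lost with voom (1.20) and with a pseudocount of 0.1 (1.90). TROY (Tnfrsf19), which can stand in for p75 in the Nogo receptor complex, was lower than in whole marrow (-3.13 ± 0.72, SE, limma adjusted p = 0.00103). It was higher than in lineage-negative marrow by 2.09 ± 0.72 (SE), a call that was lost without lineage-negative replicates 3 (1.91) or 4 (1.61). That call was also lost with AML and lineage-negative marrow fitted alone, and with every gene that is not 0 throughout tested. It rests on few reads, as 2 of 7 AML and 3 of 4 lineage-negative libraries were at or under the floor of 3 reads. Tnfrsf13c, the receptor of the B cell survival factor BAFF, was lower than in whole marrow by -1.24 ± 0.45 (SE) and higher than in lineage-negative marrow by 2.07 ± 0.45 (SE). The first of these was lost without AML replicate 1 (-0.999) or whole marrow replicates 2 (-1.15) or 4 (-1.15). It was also lost with the replicate number as a block (-0.77) and without AML replicates 5 and 6 (-0.89). Cd27, a costimulator of lymphocytes, was lower than in lineage-negative marrow by -1.38 ± 0.21 (SE) and called higher than whole marrow by 1.53 ± 0.21 (SE, limma adjusted p = 1.15e-05), but not under TMM (0.93). The ectodysplasin receptor Eda2r, the second gene called lower than lineage-negative marrow, passed the filter only with the lineage-negative libraries, at 9.08 to 21.5 normalized counts there and 1.08 to 11.1 in AML.

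**Figure D3:**
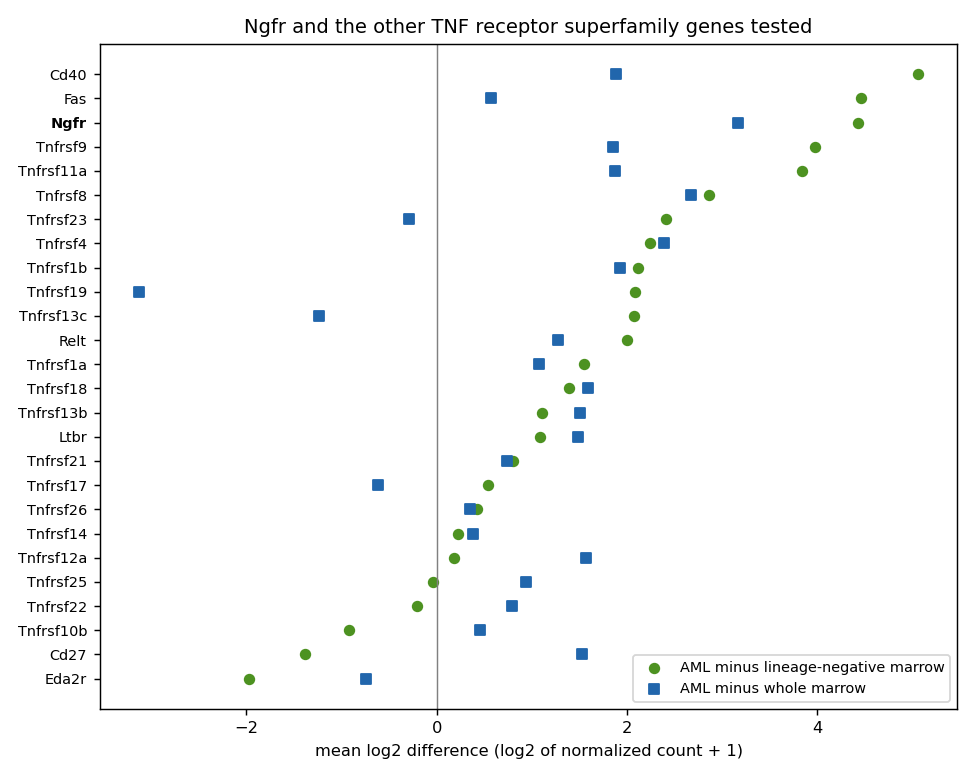
Mean log2 difference of Ngfr (bold) and the 25 other TNF receptor superfamily genes tested, AML minus lineage-negative marrow (green circles) and AML minus whole marrow (blue squares), in order of the first. Ngfr has the third largest difference from lineage-negative marrow, at 4.43 after Cd40 at 5.06 and Fas at 4.45, and the largest of these genes from whole marrow, at 3.16.

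Per kilobase of exon, so that genes can be compared, Ngfr stood at 50.7 ± 28.5 normalized counts in AML (SD, n = 7) and ranked 15th of the 28 superfamily genes. Its neighbours in that order, Tnfrsf26 at 80.4 ± 33.5 above and Tnfrsf8 at 47.0 ± 40.2 below, did not differ from it beyond their spread, and the top gene Tnfrsf1b stood at 1499 ± 318. In whole marrow Ngfr ranked 23rd at 4.52 ± 1.21, between Tnfrsf8 at 5.66 ± 1.85 and Tnfrsf25 at 4.48 ± 2.10. In lineage-negative marrow it ranked 25th at 1.91 ± 1.27, between Tnfrsf23 at 2.40 ± 0.89 and Tnfrsf19 at 0.62 ± 0.88. In single libraries its rank ran from 13th to 23rd in AML.

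Across the 7 AML libraries, genes were ordered by Pearson's r with Ngfr on the log2 scale. Of 18931 genes with an r, 355 (1.88%) had an r of at least 0.9 and 202 (1.07%) of at most -0.9, and the median r was 0.02. With 7 libraries the exact two-sided permutation test has 5040 orderings and cannot give a p below 0.000198. No gene passed after Benjamini-Hochberg adjustment over all genes, where the smallest adjusted p was 0.209, while 1912 genes had an unadjusted exact permutation p under 0.05. Leaving out AML replicate 1, 3, 4 or 5 raised the first count to 559, 768, 602 or 554, and leaving out any one AML library put the second at 281 to 556. The 355 genes rest on AML replicate 6: without it 53 of them (14.9%) had an r of at least 0.9, of 332 genes then at that level, while without AML replicate 3 284 of them (80%) did. Those 2 libraries are the farthest from the median of Ngfr, and without both 35 of the 355 genes had an r of at least 0.9.

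The 10 most alike abundant protein-coding genes were Hrh1, Tubb2a, Zfp973, Ust, Slc9a7, Nav1, Ace, Prr5l, Otulinl and Plpp2, with r from 0.982 to 0.995. Without AML replicates 3 and 6 their r ran from 0.670 to 0.986, and 3 of the 10 kept 0.9 or more: Tubb2a (0.90), Slc9a7 (0.960) and Ace (0.986). Hrh1, the histamine H1 receptor, had 59.8, 87.7, 289, 91.3, 104, 4.94 and 126 normalized counts in AML replicates 1 to 7. Its highest and lowest libraries are those of Ngfr (r = 0.995, exact permutation p = 0.00139, rho = 0.89, exact permutation p = 0.0123, n = 7), and r was 0.838 without those libraries. Ace, the angiotensin-converting enzyme, had 366, 985, 4940, 738, 645, 38.3 and 1405, a wider range than Ngfr (r = 0.984, exact permutation p = 0.000397, rho = 0.96, exact permutation p = 0.00278, n = 7).

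Slc9a7, a sodium-proton exchanger of the Golgi, had 389, 527, 610.3, 434, 480.4, 148 and 535 normalized counts in AML replicates 1 to 7. It ordered the libraries exactly as Ngfr did (r = 0.984, exact permutation p = 0.000198, rho = 1, exact permutation p = 0.000397, n = 7). Tubb2a, a beta-tubulin, gave the same order at 287 to 1056 normalized counts (r = 0.992, rho = 1), but it has near-identical paralogs between which reads may be split. The adjusted p of all 10 genes was 0.209 to 0.267. Besides these, Ust is a sulfotransferase of glycosaminoglycans, Nav1 a cytoskeletal protein of growing axons and Plpp2 a lipid phosphatase.

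These 10 genes were not all low in normal marrow. Hrh1, Ust, Slc9a7, Ace, Prr5l and Otulinl were called higher in AML than in both normal groups, with log2 differences of 1.45 to 6.68 from lineage-negative marrow. The calls of Hrh1 and Ace against whole marrow were lost under TMM. Nav1 and Plpp2 were called higher than whole marrow only, and Tubb2a and Zfp973 in neither comparison. Of the 355 genes, 202 were called higher than whole marrow and 132 higher than lineage-negative marrow, beside 27.3% and 17.7% of all genes, with no test of that difference since the AML libraries are shared.

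Among the genes that ran most against Ngfr were Selenom, Nars, Fam162a and Tpi1, with r from -0.956 to -0.938. Tpi1, the triosephosphate isomerase of glycolysis, had 5363, 3867, 3289, 4237, 4313, 7185 and 3396 normalized counts in AML replicates 1 to 7. It was highest in AML replicate 6 and lowest in replicate 3, the reverse of Ngfr (r = -0.938, exact permutation p = 0.000397, n = 7), and r was -0.985 without both. Without AML replicate 6 alone the r of Tpi1, Selenom and Fam162a was -0.851, -0.783 and -0.675. Tpi1 was named for its r, and no gene passed after adjustment over all genes.

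**Figure D4:**
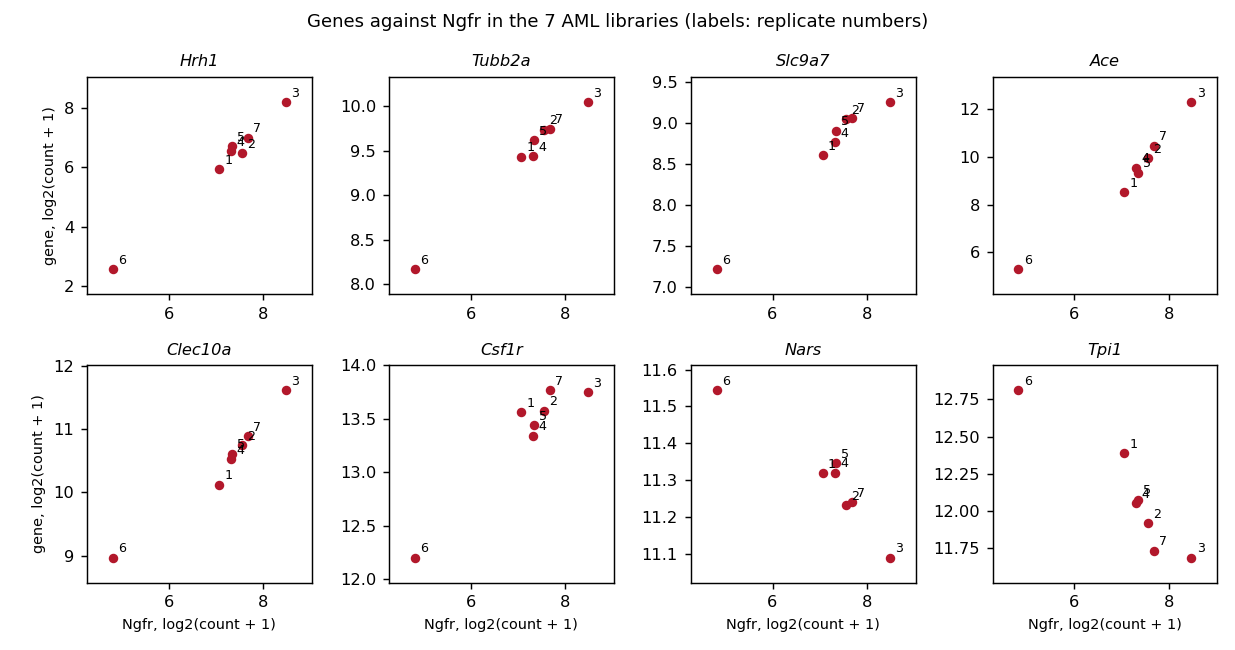
Log2 of normalized count plus 1 of 8 genes (vertical axes) against that of Ngfr (horizontal axes) in the 7 AML libraries, with replicate numbers beside the points. Replicate 6 lies apart at the low end of Ngfr and replicate 3 at the high end, and in Slc9a7, Ace, Clec10a and Tpi1 the remaining 5 libraries also follow a line.

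Library quality moved with Ngfr in part. Over the 7 AML libraries Ngfr had r = 0.20 with estimated depth, r = 0.76 with the share of genes listed at 0 and r = -0.91 with the mean of olfactory and vomeronasal genes, but rho was 0, 0.21 and -0.07. The last 2 values of r reflect AML replicate 6, which had little Ngfr and the highest olfactory and vomeronasal mean of the AML libraries. The part of that background in the order of the genes was not tested.

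Markers of cells known to carry p75 gave mixed values. Of 13 stromal markers 12 passed the filter, with a median r of 0.12 over the AML libraries, where 6 of the 12 had a positive r, and a median of -0.08 without replicates 3 and 6. Their summed level was 1351 to 3015 in AML, 1501 to 2863 in whole marrow and 1116 to 2159 in lineage-negative marrow. AML replicate 3, highest in Ngfr, had the least Lepr of the AML libraries (2.45 normalized counts, against 54.3 to 214 in the others) and the least Cxcl12 (41.7, against 175 to 1000.4), but the most Col1a1 (61.3, against 29.1 to 55.8). Spp1, Col1a2 and Col3a1 had r = 0.72, 0.67 and 0.46 with Ngfr, and -0.50, 0.06 and -0.71 without replicates 3 and 6. Of sympathetic neuron markers, Th and Dbh were listed at 0 in all 7 AML libraries, and the summed list stood at 42.0 to 78.3. Of the Schwann cell markers, Sox10 was at or under the floor of 3 reads, within 0.01% of it, in 5 AML libraries, while the list's sum was 4179 to 7723 in AML and 2537 to 4573 in whole marrow. That sum had r = 0.80 with Ngfr over the 7 AML libraries, and -0.51 without replicates 3 and 6. Of the follicular dendritic markers, Cxcl13 was at or under the floor in 4 AML libraries, and the sum was 437 to 891 in AML and 317 to 651 in whole marrow, with r = 0.77, and -0.15 without replicates 3 and 6. AML replicate 3 had the most Cxcl13 of the AML libraries (23.3 normalized counts, against 0 to 5.07 in the others). It also had the most Cr2 (114, against 6.75 to 12.9), while whole marrow had 79.9 to 240 of Cr2. The part of such cells in the level of Ngfr was not tested.

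Among blood cell markers, 7 of 8 monocyte and macrophage markers were called higher than whole marrow and 8 of 8 higher than lineage-negative marrow. Of all genes tested 27.3% and 17.7% were, and 5.86% and 17.2% under TMM. Of the 7 T cell markers 5 and 7 were, and of the 9 plasmacytoid dendritic cell markers 4 and 7. Of the 7 B cell markers 0 and 5 were, of the 11 neutrophil markers 0 and 7, and of the 6 mast cell and basophil markers 0 and 0. The summed level of the monocyte and macrophage markers was 75667 to 142098 in AML, 17335 to 37913 in whole marrow and 20280 to 31119 in lineage-negative marrow. Within AML the sum did not follow Ngfr (r = -0.10, rho = -0.29), although Csf1r (r = 0.956) and Cx3cr1 (r = 0.948) of the list did. Without AML replicates 3 and 6 these were 0.558 and 0.232. The 11 neutrophil markers and the 6 mast cell and basophil markers tested all had a negative r with Ngfr, with medians of -0.39 and -0.51. Without AML replicates 3 and 6 all 11 neutrophil markers were still negative (median -0.61), but only 3 of the 6 mast cell and basophil markers were (median -0.02). All 7 B cell markers had a positive r with and without those 2 libraries, with medians of 0.62 and 0.61, and their sum was 494 to 6416 in AML, highest in replicate 3, and 3903 to 8450 in whole marrow. Of 9 markers of plasmacytoid dendritic cells 7 had a positive r, with a median of 0.59, and 0.78 without replicates 3 and 6. Their sum was 8836 to 29966 in AML, 3971 to 6731 in whole marrow and 7494 to 11791 in lineage-negative marrow. Within AML the sum had r = 0.67 and rho = 0.29 with Ngfr, and r = 0.81 without those 2 libraries. AML replicate 3, highest in Ngfr, had a sum of 15931.5, below every other AML library except replicate 6. The same held for its Siglech (181) and Ccr9 (146). Tcf4, a transcription factor of these cells, had r = 0.840, and 0.980 without AML replicates 3 and 6. Il3ra and Cox6a2 of the list had r = -0.31 and -0.48, and -0.09 and 0.92 without AML replicates 3 and 6. The part of these cells in the level of Ngfr was not tested.

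Genes near Ngfr on its chromosome differed in direction. Within 500 kb on either side the table holds 30 genes, of which 14 passed the filter. Against whole marrow 5 were higher and 2 lower, and against lineage-negative marrow 3 higher and 1 lower, beside the background shares of 27.3% and 11.3% and of 17.7% and 12.5%. Under TMM 2 were higher and 4 lower than whole marrow. Of those called lower than whole marrow, 1 of the 2 as deposited and 2 of the 4 under TMM passed the filter only through the whole marrow libraries, which fixed their direction. The higher genes were Abi3, Gngt2, Slc35b1, Snf8 (log2 difference 1.03) and the long noncoding RNA 4833417C18Rik (1.02), and the lower were Phospho1 and Igf2bp1. Igf2bp1, an RNA-binding protein, is the gene that passed only through whole marrow, at 14.6 to 20.1 normalized counts there and 0 to 7.40 in AML. Leaving out AML replicate 4 or whole marrow replicate 1 left 3 higher, and leaving out whole marrow replicate 2, 3 or 4 left 0 lower. Leaving out whole marrow replicate 1 or AML replicate 2, 3, 4, 5 or 7 left 1 lower. The nearest genes tested had smaller differences than Ngfr. Phb, a mitochondrial prohibitin 98.1 kb away, was lower than in lineage-negative marrow (log2 difference -1.33 ± 0.25, SE, limma adjusted p = 0.000208) and not called against whole marrow (0.91). The zinc finger gene Zfp652 and the ubiquitin ligase adaptor Spop, 144 and 155 kb away, had no call in either comparison.

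Abi3 and Gngt2, 261 and 268 kb away, were higher than in both normal groups. Gngt2, a G protein gamma subunit, had 294 to 1675 normalized counts in AML, 121 to 226 in whole marrow and 27.3 to 62.6 in lineage-negative marrow, with differences of 2.11 ± 0.37 and 4.30 ± 0.37 (SE, limma adjusted p = 9.73e-05 and 1.59e-08). Its r with Ngfr over the AML libraries was 0.842, and 0.280 without AML replicates 3 and 6. Abi3, an adaptor of actin regulation, had differences of 1.68 ± 0.30 and 3.24 ± 0.30 (SE). In the table Abi3 overlaps both Gngt2 and the phosphatase gene Phospho1 on the opposite strand. The strand setting of the counting is not given in the sources used here, so reads of the overlapping stretches may be mixed. The call of Phospho1 against whole marrow (-1.48 ± 0.60, SE) was lost in 8 of the leave-one-out fits, at -1.46 to -1.21, while that against lineage-negative marrow was 2.74 ± 0.60 (SE). Slc35b1, a nucleotide sugar transporter 184 kb away, was called higher than whole marrow as deposited (1.09) but not without whole marrow replicate 1 (0.80) or under TMM (0.48), and Fam117a was not called in either comparison as deposited.

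The Hoxb genes, homeobox regulators of position and of blood stem cells, lie 625 to 797 kb from Ngfr in the table, and 3 of 10 passed the filter. Hoxb4 had a mean of 147 ± 19.2 in AML (SD, n = 7) and was called higher than whole marrow as deposited (1.18 ± 0.22, SE), but not under TMM (0.58). Hoxb3 had no call. Hoxb8 passed the filter only through whole marrow, at 12.1 to 20.5 normalized counts there, 0 to 4.90 in AML and 0 in lineage-negative marrow, so its difference is not given as a call.

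**Figure D5:**
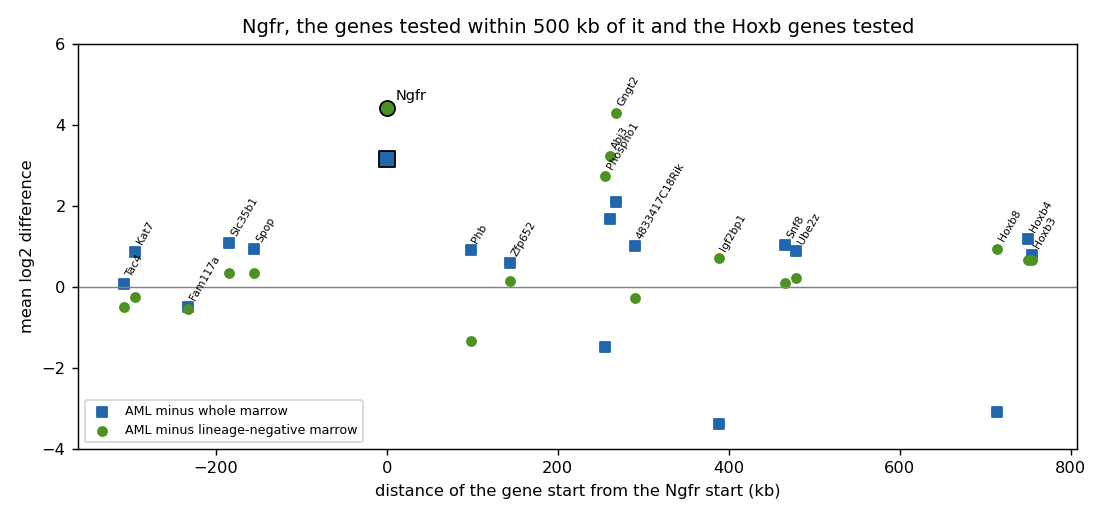
Mean log2 difference of the 14 genes tested within 500 kb of Ngfr and the 3 Hoxb genes tested, by the distance of their starts from that of Ngfr in kb (0 is Ngfr, outlined), AML minus whole marrow as squares and minus lineage-negative marrow as circles. Ngfr at 3.16 and 4.43 lies between its 4 nearest tested genes, with differences between -1.33 and 1.09, and Abi3 and Gngt2 at 261 and 268 kb are high in both.

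Over all 15 libraries, the 10 abundant protein-coding genes most like Ngfr were Ckb, Il10ra, Cyp27a1, Ptpro, Cd300a, Gprc5c, Cd300lg, Prss30, Rnd3 and Fcgrt, with r from 0.980 to 0.987. This likeness follows the difference between the groups for which Ngfr was chosen, so it has no test. None of the 10 is among the 10 most alike within AML, and 86 genes had an r of at least 0.95, or 174 without AML replicate 6. Ckb, the brain-type creatine kinase, had 488, 729, 2343, 648, 625, 230 and 795 normalized counts in AML replicates 1 to 7, with its highest and lowest in the same libraries as Ngfr. The whole marrow mean of Ckb was 94.7 ± 22.0 and its lineage-negative mean 44.6 ± 14.6 (SD, n = 4 each). Il10ra, the interleukin 10 receptor, had an r of 0.983 over the 15 libraries and 0.969 within AML, and Fcgrt, the neonatal Fc receptor, of 0.980 and 0.964. Cd300lg had an r of 0.981 over the 15 libraries, and within AML its rho was 0.07. Cyp27a1, a sterol hydroxylase, ordered the 7 AML libraries as Ngfr did (rho = 1).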

How the data were processed

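Total RNA of 15 marrow samples was extracted with TRIzol and made into TruSeq Stranded Total RNA libraries, per the labels' protocols. The deposited values are a signal: gene counts that the authors divided by a DESeq2 size factor of each library. The submitters' processing notes name Partek, STAR, DESeq2 and mm10. In each library 83.9% to 88.5% of low values were whole multiples of the value of 1 read, within 0.02 of it, so whole reads were not fully recovered and no negative binomial count test was run; limma's voom on the estimated reads was an added alternative. Floors of 3 reads cover counting error only.

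Genes with a value of at least 10 in at least 4 of 15 libraries were kept (18941 of 38315). Log2(value + 1) was fitted with limma 3.58.1 in R 4.3.3 as 3 group means with a trended prior, two-sided, with Benjamini-Hochberg adjustment over the kept genes; differences on this scale understate the change of low genes. Ngfr has no test. Estimates of 1 fit share the spread of all groups. TMM factors were computed on the deposited values. Samples were grouped by the titles. Same-numbered samples of different groups had correlations of -0.288 to 0.171 between their deviations, with 2 of 12 pairs over 0.1, so the numbers were not taken as pairs. On simulated data with 17954 genes, 173 of 187 changed genes were called in the right direction for AML minus whole marrow, with 9 unchanged genes called. On these data all 20 genes made to follow Ngfr had an r of at least 0.9, and so did 82 others. Those 20 carried the AML pattern of Ngfr with counting error alone, so their recovery does not measure how many real followers would be found. A gene passed the filter only through 1 group where fewer than 4 libraries outside it reached a value of 10.

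The gene, the lists and the tests were chosen with earlier results of these data known. Named genes were, by rule, all neurotrophin ligands and receptors, up to 5 called genes with the largest and up to 5 with the smallest difference from the signalling and superfamily lists, the 10 highest and 5 lowest r within AML (mean of at least 100, rho of at least 0.8 in size), the 10 highest r over 15 libraries (mean of at least 20), the 3 nearest genes on each side, the Hoxb genes and the defining markers. Predicted genes were left out of the lists by r. Cx3cr1, Flt3, Tcf4, Spp1, Col1a2, Col3a1, Abi3, Gngt2, Snf8, 4833417C18Rik, Igf2bp1 and the dendritic cell genes were named after their values were seen, and the fits with voom and without AML replicates 5 and 6 or 3 and 6 were added after seeing the data. The alternatives were other pseudocounts, filters, scalings, samples in the fit, a replicate block and leaving out each library. Some genes of these lists are not reported here.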

Additional observations from a re-analysis of the deposited data

Results flagged for a closer look

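In 11 of 98 groups of 4 to 7 libraries, 1 library lay far from the rest by Dixon's criterion. For independent, normally distributed values chance meets it in about 1 group in 20. These counts are not on a log scale, some are 0 and the groups share libraries, so the number of groups found cannot be judged against that rate. AML replicate 6, lowest in Ngfr, was the high library in 5 of them: Bdnf at 6.17 normalized counts, listed at 0 in the other AML libraries, Ntrk2 at 19.7 (others 0 to 3.78), Sorcs1 at 461.5 (others 0 to 2.45), Tnfrsf8 at 452 (others 53.4 to 205) and Eda2r at 11.1 (others 1.08 to 4.72). AML replicate 1 was high in Aph1b at 1044 (others 311 to 619), and AML replicate 3, highest in Ngfr, was high in Tnfrsf13c at 498 (others 50.9 to 234). Whole marrow replicate 1 was low in Sorl1 at 6633 (others 12875 to 13399), and whole marrow replicate 4 was high in Eda2r at 10.9 (others 4.02 to 4.49). Lineage-negative replicate 1 was high in Sorl1 at 3937 (others 2040.2 to 2232), and lineage-negative replicate 4 in Ptpn13 at 401 (others 158 to 179). Ngfr itself was not among these groups.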

How the results depend on the processing

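The log2 difference of Ngfr ran from 2.94 to 3.56 against whole marrow and from 4.13 to 4.82 against lineage-negative marrow when each library was left out in turn, and it was 3.60 and 4.87 without AML replicates 5 and 6. No called difference of a named gene changed sign under the alternatives run. With the replicate number as a block, which the data do not show to be a pairing, 2 receptors were called lower and 0 higher than whole marrow and 4 higher and 1 lower than lineage-negative marrow, with 16 signalling and 13 superfamily genes higher than whole marrow, and the block moved no count of calls by over 1.5 times. With TMM, counts against whole marrow were 5 receptors lower, 1 signalling gene higher, 5 superfamily genes higher, and 2 nearby genes higher and 4 lower. With voom they were 1 signalling gene, 4 superfamily genes and 2 nearby genes higher. With every gene that is not 0 throughout tested, 5 receptors, 1 signalling gene, 4 superfamily genes and 7 nearby genes were lower than whole marrow. With a mean of at least 50, which tests fewer genes, 0 receptors, 1 superfamily gene and 1 nearby gene were lower than whole marrow, 2 receptors were higher and 0 lower than lineage-negative marrow, and 1 superfamily gene was lower there. Genes with r of at least 0.9 numbered 213 by Spearman's rho. Genes with r of at most -0.9 numbered 39 with a mean of at least 50, 87 by Spearman's rho, 778 without AML replicates 5 and 6 and 332 without AML replicates 3 and 6. The cause of these changes, apart from the filter, was not tested.

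Leaving out each library in turn gave, against whole marrow, 2 to 3 receptors lower and 0 higher, 5 to 17 signalling genes higher and 0 lower, 10 to 14 superfamily genes higher and 1 to 3 lower, and 3 to 6 nearby genes higher and 0 to 2 lower. Against lineage-negative marrow it gave 3 to 4 receptors higher and 1 lower, 4 signalling genes higher and 3 to 4 lower, 14 to 15 superfamily genes higher and 2 to 3 lower, and 3 nearby genes higher and 1 lower. It gave 332 to 768 genes with r of at least 0.9, 281 to 556 with r of at most -0.9 and 76 to 174 with r of at least 0.95 over all libraries. The normal levels of Ngfr rest on 3 to 17 reads a library. Per kilobase of exon, 2.92% to 49.0% of the olfactory and vomeronasal genes were at or above Ngfr in the whole marrow libraries.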

Other observations

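A list of 15 dendritic cell and antigen presentation genes was chosen after Clec10a and Cd209a, which are not in it, were seen to have a high r with Ngfr within AML, so it is a description with no test. All 15 had a positive r over the 7 AML libraries, and 0 of them reached 0.9. Their r ran from 0.135 (Cd86) to 0.872 (Clec9a) with a median of 0.63, beside 0.62 for the B cell markers and 0.02 over all genes, and without AML replicates 3 and 6 the median was 0.84 and 14 were positive. Sirpa had an r of 0.370, and -0.27 without those 2 libraries, and Xcr1 of 0.470. Clec10a, a lectin of dendritic cells and macrophages, had 1111, 1719, 3124, 1472, 1563, 499 and 1894 normalized counts in AML replicates 1 to 7, the same order of libraries as Ngfr (r = 0.981, rho = 1, n = 7), and r was 0.975 without AML replicates 3 and 6. Its means were 158 ± 32.8 in whole marrow and 127 ± 28.2 in lineage-negative marrow (SD, n = 4 each). Itgax, the integrin CD11c, had 789, 1742, 5575, 1460, 1153, 633.5 and 2010.5 in AML (r = 0.818, rho = 0.96, n = 7), and r was 0.957 without those 2 libraries. Cd209a, a lectin of monocyte-derived dendritic cells, had 13.6 to 5215 (r = 0.979), and r was 0.490 without them. Clec9a, a receptor of cross-presenting dendritic cells, had r = 0.872, and 0.818 without them. Flt3, the mouse gene of the receptor kinase FLT3, had r = 0.965, and 0.873 without them, at 870.0 to 4484 normalized counts. Whether its reads include those of the duplicated FLT3 is not given in the sources used here.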
